A study of Mus musculus with 12 samples.

Results

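Deep intragenic peaks are the 5-methylcytosine (5mC) and 5-hydroxymethylcytosine (5hmC) peaks that lie inside an annotated gene more than 100 kb away from its transcription start site (TSS). They were chosen by position alone, from the authors' annotation of each peak as inside its gene and from the annotated distance, so that no measured level entered the choice. Of 55085 peaks of 5mC, 1527 met the rule, and of 47478 peaks of 5hmC, 1783 met it. Together these were 3310 of 102563 peaks in 537 host genes, of which 366 carried deep peaks of both marks.

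The samples were cells of the mouse cortex at E14.5, sorted from double reporter embryos in which *Btg2* drives a red (RFP) and *Tubb3* a green (GFP) fluorescent protein. Proliferative progenitors (PP) carried neither reporter, differentiative progenitors (DP) carried RFP alone, and neurons carried GFP. Sorting is by reporter, so a fraction may hold other cells of the same reporter state, and all embryos carried both reporters. DNA of the 3 populations, each with its own barcode, was combined and precipitated with an antibody against 5mC (MeDIP) or 5hmC (hMeDIP), which gave 6 antibody-treated and 6 untreated input samples, 1 for each cell type and mark.

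Each peak was deposited with 1 level per cell type, the log2 of a normalised read level that the authors had averaged over replicates. The tables hold no replicate values and no read counts, and no difference below has a replicate error or a test. Although the paper reports total reads per sample, the depth behind a single level is unknown. Differences between cell types are given as differences of these log2 levels, and a peak is counted as higher or lower when its levels differ by at least 1.5-fold, 0.58 on the log2 scale. The main shares are set beside the share of all peaks of that mark. Gene lists are set beside all deep peaks, and counts of single genes are given on their own.

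5mC is the methylated form of cytosine, found in mammals mostly at CpG, and 5hmC is made from it by the Tet enzymes. Methylation is common along gene bodies, while the start sites of many genes lack it, and 5hmC is abundant in the gene bodies of brain cells. Very long genes are frequent among those of neurons and encode many adhesion molecules, ion channels, receptors, and scaffolds of the synapse.

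The label of long genes was checked against a RefSeq gene table of the same mouse build (GRCm38.p6, mm10). Of the 537 host genes 535 were matched, and 529 of these were over 100 kb long, with a median length of 280 kb against 21.0 kb for the 15087 genes of the tables that were matched. Of the deep peaks, 1512 of 5mC (99%) and 1768 of 5hmC (99.2%) lay within the RefSeq gene of the same symbol. Many of these genes have additional start sites. For 1101 deep 5mC and 1279 deep 5hmC peaks a start of the host gene was listed in RefSeq, and 915 (83.1%) and 1094 (85.5%) were over 100 kb from every listed one. Within 5 kb of a start of any gene lay 46 deep 5mC peaks (3.01%) and 50 deep 5hmC peaks (2.80%).

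Only 4 deep peaks reached into a RefSeq start window, that is 250 bases before to 50 bases after a start. The stretch that each shares with its window is shown here, written 5′ to 3′ on the strand given, because CpG is the main site of both marks, and every CpG is in capitals. The first lies in *Spock1* and carries 5mC, at the start of the predicted gene *Gm33240* (chr13:57444350-57444464, plus strand). The second lies in *Ror2* and carries 5hmC, at the start of *Gm52058* (chr13:53169609-53169770, plus strand). The third and the fourth carry 5hmC and lie at an internal start of their own host gene, *Zfp385b* (chr2:77703223-77703359, minus strand) and *Lmo7* (chr14:101840565-101840672, plus strand).
Spock1, 5mC: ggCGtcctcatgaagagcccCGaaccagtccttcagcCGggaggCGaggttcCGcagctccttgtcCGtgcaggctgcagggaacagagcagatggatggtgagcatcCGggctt
Ror2, 5hmC: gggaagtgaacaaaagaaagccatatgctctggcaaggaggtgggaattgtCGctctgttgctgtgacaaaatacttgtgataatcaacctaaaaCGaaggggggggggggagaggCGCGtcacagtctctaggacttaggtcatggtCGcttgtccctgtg
Zfp385b, 5hmC: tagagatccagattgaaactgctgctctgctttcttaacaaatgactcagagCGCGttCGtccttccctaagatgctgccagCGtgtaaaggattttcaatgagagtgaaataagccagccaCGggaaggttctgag
Lmo7, 5hmC: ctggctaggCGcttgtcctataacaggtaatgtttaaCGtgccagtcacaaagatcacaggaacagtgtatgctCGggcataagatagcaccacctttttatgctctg
They held 7, 5, 5, and 3 CpG, or 6.09, 3.09, 3.65, and 2.78 CpG per 100 bases, where the median of 32851 RefSeq start windows was 2.33. The quartiles of these windows were 1 and 6.67, so every stretch lay between them. The stretches are parts of windows that a peak covers, and the values are of whole windows. The *Spock1* peak had a 5mC level of 4.06 in PP and 3.54 in DP and of 3.75 in neurons. In *Ror2*, which encodes a Wnt receptor kinase, 5hmC stood at 2.07 in PP, at 4.57 in DP, and at 3.79 in neurons, highest in DP. *Zfp385b*, a zinc finger gene, had 5hmC levels of 4.55, 4.20, and 4.15, and *Lmo7*, a LIM domain gene, had 4.84, 4.99, and 5.20 in the same order. Only the *Ror2* peak differed by 1.5-fold or more between PP and neurons.

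Deep peaks were spread along their genes. Their median distance from the annotated TSS was 144 kb for 5mC and 148 kb for 5hmC. Over 200 kb lay 343 and 457 of them, and over 500 kb lay 9 and 24, the farthest being a 5hmC peak in *Dcc*, the netrin receptor gene, at 847 kb. They were as short as other peaks, with a median span of 144 bp for 5mC and 162 bp for 5hmC against 144 and 164 bp of all peaks. A host gene had a median of 4 deep peaks. Only 1 was found in 92 genes, while 102 genes with at least 10 held 1674 of them (50.6%).

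The identity of the sorted cells was read from the deposited expression columns, which come from an earlier RNA-seq study of the same cell types and have no named scale. All 6 markers of PP were highest in PP, all 4 of DP in DP, and the 5 of neurons that the tables list in neurons. The 3 listed interneuron markers were highest in neurons as well, with *Gad1* at 32.3, 41.9, and 3055 in PP, DP, and neurons. The pairs of listed endothelial and microglial markers were highest in PP, at no more than 247. The part of these other cells in the levels below was not tested, and a different mix of cells cannot be told apart from a difference within cells.

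In 5mC, deep peaks were lower in neurons than in either progenitor. Their median was 5.01 for PP, 4.99 for DP, and 4.75 for neurons. PP and DP levels were nearly the same, and the step lay between DP and neurons. Over all 5mC peaks the medians were 5.06, 5.05, and 4.87, and the median difference of all peaks was -0.18 from DP to neurons and -0.17 from PP to neurons, so that a general shift of the table is contained in every difference to neurons. The median difference of deep peaks was -0.23 and -0.22, respectively.

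From PP to DP, 4.52% of deep 5mC peaks were higher and 6.22% lower, against 4.51% and 5.53% of all peaks. These shares were close to the background. From DP to neurons 2.36% were higher and 20.8% lower, against 2.26% and 15.5%, and from PP to neurons 1.44% were higher and 22.3% lower, against 2.12% and 16.3%. The 95% Wilson interval of the 22.3% ran from 20.3 to 24.5%, which covers counting error only and treats peaks of the same gene as independent. With the median difference of all peaks taken off, 15.0% of deep peaks and 10.2% of all peaks remained lower in neurons than in PP, while 4.91% and 5.00% were higher.

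In 5hmC, the medians of deep peaks were close in the 3 cell types, at 4.69 (PP), 4.65 (DP), and 4.75 (neurons), and so were those of all peaks, at 4.72, 4.71, and 4.75. The median difference of single peaks was -0.01 from PP to DP, 0.02 from DP to neurons, and -0.04 from PP to neurons. Over all peaks it was -0.003, -0.02, and -0.08. The typical peak was thus not higher in neurons than in PP, although the median level was. More peaks passed 1.5-fold on the side of the later cell type than on the other. From PP to DP 11.9% of deep peaks were higher and 5.38% lower, against 11.1% and 4.74% of all peaks. From DP to neurons 19.5% were higher and 6.90% lower, against 15.8% and 7.8%, and from PP to neurons 23.6% were higher and 11.3% lower, against 20.2% and 10.8%. The excess of deep peaks over all peaks was not an excess over the other peaks inside genes, 24.5% of which were higher in neurons than in PP. With the median difference of all peaks taken off, 25.4% of deep, 22.1% of all, and 26.8% of other peaks inside genes were higher. In the same order 7.91%, 7.71%, and 7.11% were lower.

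**Figure D1:**
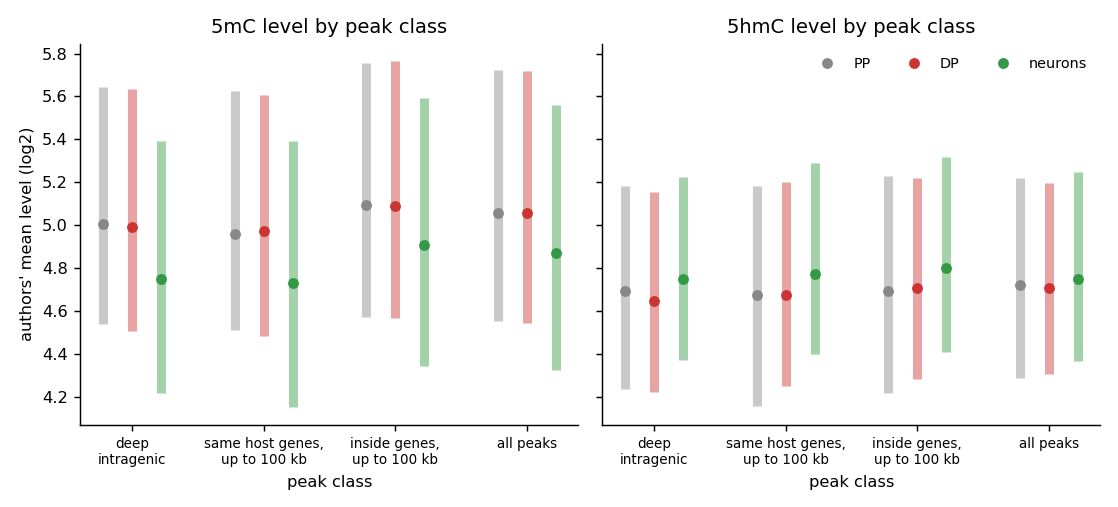
Levels of 5mC (left) and 5hmC (right) on the authors' log2 scale for deep intragenic peaks, peaks up to 100 kb from the TSS in the same host genes, all peaks inside genes up to 100 kb, and all peaks. Points are medians over peaks in PP (gray), DP (red), and neurons (green), and bars run from the lower to the upper quartile of peaks, which is not a replicate error. The deep 5mC median is 5.01 in PP and 4.75 in neurons, and the deep 5hmC median is 4.69 in PP and 4.75 in neurons.

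The share of 5mC peaks that were lower in neurons than in PP was larger with distance from the TSS. Inside genes it was 15.2% at 0 to 10 kb, 16.5% at 10 to 50 kb, 20.4% at 50 to 100 kb, 21.5% at 100 to 200 kb, and 25.2% at 200 to 500 kb, and beyond 500 kb it was 33.3% of 9 peaks. The 5hmC peaks showed no such order. The share that was higher in neurons was 22.9%, 25%, and 26.8% in the first 3 of these bins, 25.1% at 100 to 200 kb, 19.2% at 200 to 500 kb, and 16.7% of 24 peaks beyond 500 kb.

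Other peaks of the same genes had similar shares. The host genes had 1638 other 5mC peaks within 100 kb of the TSS, in 360 genes, and 22.2% of these were lower in neurons than in PP. In RefSeq genes over 100 kb that held no deep peak the share was 20.4% of 3429 peaks, and in genes up to 100 kb it was 14.8% of 14920. The median difference of the deep peaks from PP to neurons was set against that of the other peaks inside each gene. The deep one was higher in 180 of 360 genes (50%). The median of the paired differences was -0.00046, with quartiles of -0.25 and 0.24. In 5hmC the deep median difference was higher in 219 of 433 genes (50.6%), and 26.3% of the 1964 other peaks in those genes were higher in neurons.

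**Figure D2:**
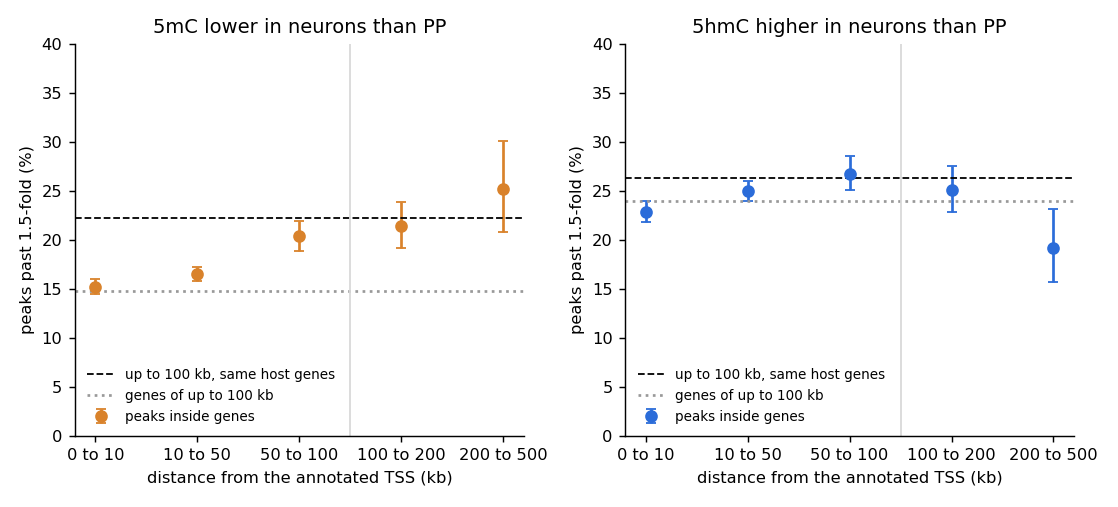
Share of peaks inside genes that were at least 1.5-fold lower in neurons than in PP for 5mC (left) or higher for 5hmC (right), by distance from the annotated TSS in kb. Points are shares in percent with 95% Wilson intervals (counting error only), the vertical line marks 100 kb, the dashed line is the share of peaks up to 100 kb in the host genes of deep peaks, and the dotted line that in genes of up to 100 kb. Peaks beyond 500 kb (9 and 24) are not drawn. Of the 5 bins drawn, that of 200 to 500 kb is the highest for 5mC, at 25.2% with the dotted line at 14.8%, and the lowest for 5hmC, at 19.2%.

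Deep 5mC shares followed gene length in the same order. Deep peaks lower in neurons than in PP made up 19.5% in host genes of 100 to 200 kb, 21.8% in those of 200 to 500 kb, and 25.7% in those over 500 kb. The 5mC peaks within 100 kb of the TSS did not keep this order, with 20.2% of 3159, 22.7% of 1799, and 19.1% of 341. Deep 5hmC peaks higher in neurons went the other way, with 32%, 24%, and 18.9%. Peaks within 100 kb of the TSS in genes over 500 kb had a similar 5hmC share, 19.2% of 469, below the 26.4% of 3155 and 25.2% of 1971 in the shorter classes. At the distance limit itself the levels were alike on both sides. The 294 peaks of 5mC at 90 to 100 kb had medians of 4.91 in PP and 4.75 in neurons, and the 243 at 100 to 110 kb had 4.90 and 4.70. For 5hmC, 287 peaks just below the limit had 4.63 and 4.80, and 257 just above it had 4.68 and 4.81.

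Weak peaks passed 1.5-fold more often than strong ones. When peaks were split into 4 classes of equal size by their mean level over all peaks of the mark, 39.2% of deep 5mC peaks in the weakest class were lower in neurons than in PP, and 10.5% in the strongest. For all peaks the same shares were 32.5% and 5.58%, so the deep share was larger at both ends. In 5hmC 49.3% of deep peaks in the weakest and 12.4% in the strongest class were higher in neurons, against 43.2% and 9.88% of all peaks.

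Named deep peaks were the 3 with the largest difference from PP to neurons for each mark and direction, among those with a mean level at or above the median of all peaks and no level at the lowest value listed. This left 717 peaks of 5mC and 863 of 5hmC. Their levels are given as PP, DP, and neurons, and as extremes of many they are a description of the range.

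Under this rule, the largest losses of 5mC were found in *Cdyl2*, *Arhgap10*, and *Nell2*. In *Cdyl2*, a chromodomain gene, the peak at chr8:116619844-116619981, 113 kb from the TSS, had levels of 6.73, 5.71, and 3.78. In *Arhgap10*, which encodes a GTPase activating protein, the peak at chr8:77364597-77364722 had levels of 6.23, 5.65, and 3.57. In *Nell2*, a secreted glycoprotein gene, the peak at chr15:95305208-95305425 had levels of 6.60, 6.09, and 4.59. All of these were lower at each step, and the step from DP to neurons was the larger one. The expression of the host genes differed in direction, since *Nell2* had 1343 in PP and 16800 in neurons, *Arhgap10* had 368 and 131, and *Cdyl2* had 309 and 287.

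Among the largest gains of 5mC, those of *Ppm1h* and *Myo3b* were much smaller in size. *Ppm1h*, a protein phosphatase gene, had 4.71, 4.93, and 5.37 at chr10:122811414-122811569. *Myo3b*, a myosin gene, had 4.92, 4.97, and 5.54 at chr2:70248513-70248688. The differences from PP to neurons were 0.66 in *Ppm1h* and 0.62 in *Myo3b*, while those of the 3 losses lay between -2.95 and -2.00.

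For 5hmC the order was the reverse, and gains were larger than losses. *Odz3* (RefSeq symbol *Tenm3*), which encodes the synaptic adhesion protein teneurin-3, had 4.15, 5.49, and 6.52 at chr8:48483138-48483274, 191 kb from the TSS. *Dgki*, a diacylglycerol kinase gene, had 3.71, 4.79, and 6.04 at chr6:37142136-37142259. *Gse1*, which encodes a coiled-coil protein, had 4.23, 5.72, and 6.40 at chr8:120392074-120392225, although another listed start of this gene lay 96.7 kb away. In all 3 genes the gain was already present in DP, with 1.34, 1.08, and 1.49 from PP to DP. The largest losses of 5hmC were found in *Klhl29*, a kelch-like gene, with 6.31, 6.01, and 4.72, in *Nup210*, a nuclear pore gene, with 5.37, 4.95, and 4.07, and in *Syt1*, which encodes a calcium sensor of synaptic vesicles, with 5.12, 4.99, and 3.97. The *Syt1* peak lost 5hmC mostly from DP to neurons, where expression of the gene was 142 and 6547. The deep 5mC peaks that overlap those of *Klhl29* and *Syt1* were lower as well, with differences of -3.89 and -4.58 from PP to neurons.

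Some deep peaks stood at the lowest value listed, which several peaks share and which therefore gives no measured size of a difference. They were 3 deep peaks of 5mC in neurons, in *Auts2*, *Cradd*, and *Gabbr2*, and 10 deep peaks of 5hmC in progenitors. The 9 of PP lay in *Fstl4*, *Fto*, *Grik4*, *Ldb2*, *Mapk10*, *Pard3*, *Svil*, and *Xylt1*, with 2 in the last, and that of DP in *Phactr2*. One of the peaks in *Xylt1*, a gene of proteoglycan synthesis, reached 5.94 in neurons. Peaks at the lowest value were kept in the shares and counts past 1.5-fold.

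The 6 genes with the most deep peaks were *Spock1*, *Auts2*, *Rbfox1*, *Ank3*, *Odz3*, and *Robo1*. None of their 99 deep 5mC peaks was higher in neurons than in PP, and 33 were lower, with 1 in *Auts2* at the lowest level listed. Of their 125 deep 5hmC peaks, 43 were higher and 12 lower. Over all deep peaks, 1.44% of 5mC were higher and 22.3% lower, and 23.6% of 5hmC were higher and 11.3% lower. Over all peaks these shares were 2.12%, 16.3%, 20.2%, and 10.8%. The absence of higher 5mC peaks is close to these small shares.

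*Spock1* (chr13:57421195-57908332), which encodes the proteoglycan testican-1, had 47 deep peaks, 26 of 5mC and 21 of 5hmC. Its median 5mC levels in PP, DP, and neurons were 4.88, 5.03, and 4.53, and 5 peaks were lower in neurons than in PP. Its median 5hmC levels were 4.37, 4.47, and 4.90, and 7 peaks were higher. Expression in the same order was 61.8, 158, and 4517.

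*Auts2* (chr5:131437333-132543220), a gene linked to transcription and to the cytoskeleton of young neurons, had 43. All 14 of its deep 5mC peaks were below their PP level in neurons, where the median difference of all 5mC peaks was -0.17. Of the 14, 9 were past 1.5-fold, 1 of which stood at the lowest level listed in neurons. The 14 peaks had medians of 4.80, 4.41, and 3.71 from PP to neurons. Its 29 deep 5hmC peaks went both ways, with 9 higher, 4 lower, and a median of 4.51, 4.49, and 4.77. The median difference of these peaks from PP to neurons was -0.03, so the higher median level was not the trend of the typical peak. *Rbfox1* (chr16:5884793-7412480), which encodes a neuronal splicing regulator, had 39. Its 10 deep 5mC peaks had medians of 4.74, 4.44, and 3.99, and 5 were lower, with a largest difference of -3.94. Its 29 deep 5hmC peaks had medians of 5.24, 5.13, and 5.19, with 6 higher and 4 lower. Expression in PP, DP, and neurons was 20725, 33469, and 54016 for *Auts2*, and 53.6, 379, and 6776 for *Rbfox1*.

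*Ank3* (chr10:69533486-70027436), which encodes ankyrin-G of the axon initial segment, had 17 deep 5mC peaks with medians of 5.28, 5.27, and 4.74, 5 of them lower. Its 15 deep 5hmC peaks had medians of 4.40, 4.56, and 4.70, and 8 were higher, the largest share of higher 5hmC peaks among the 6 genes. *Odz3* (chr8:48225665-49522824) had 15 deep 5mC peaks, all below their PP level in neurons, as was the median of all 5mC peaks. Of the 15, 6 were past 1.5-fold, and the medians were 5.53, 5.11, and 4.66. Its 17 deep 5hmC peaks had medians of 4.66, 4.72, and 5.17, with 6 higher and 2 lower. *Robo1* (chr16:72027518-73047491), which encodes a receptor for the Slit guidance cues, had 17 deep 5mC peaks, 3 of them lower, and 14 deep 5hmC peaks, 7 of them higher. Its 5mC medians were 4.82, 5.10, and 4.70, highest in DP.

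**Figure D3:**
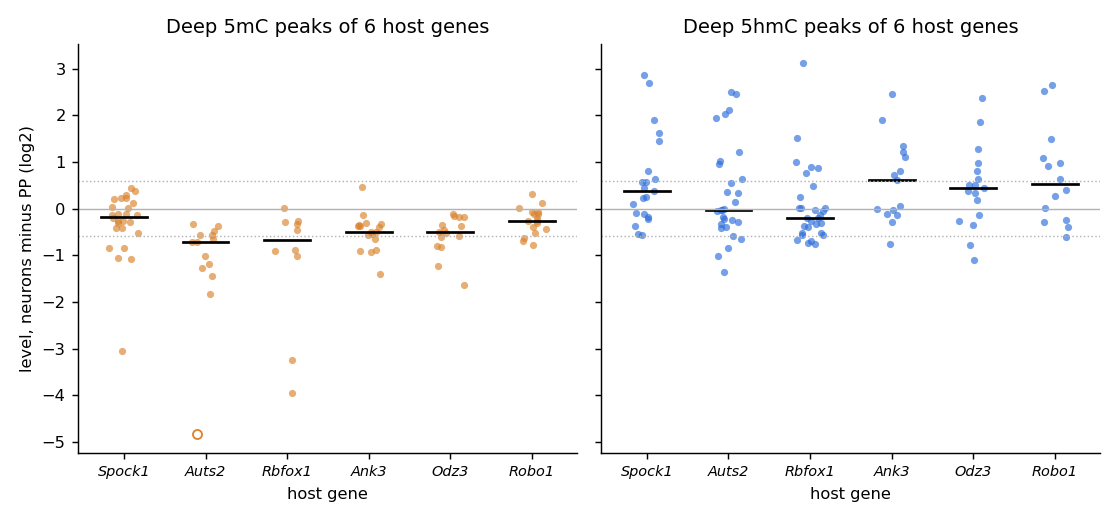
Difference of the log2 level between neurons and PP for every deep 5mC peak (left) and deep 5hmC peak (right) of the 6 host genes with the most deep peaks. Each point is a peak, black bars are medians over peaks, dotted lines mark 1.5-fold, and the open point in Auts2 has the lowest level listed in neurons, so its position is not a measured size. No 5mC point lies above the upper dotted line, which 1.44% of all deep 5mC peaks passed. Points of 5hmC lie beyond both dotted lines in 5 of the 6 genes.

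Peaks of the same gene were not copies of each other. In genes with at least 5 deep peaks of a mark, the median SD of the difference from PP to neurons within a gene was 0.42 for 5mC (112 genes) and 0.74 for 5hmC (126 genes), against 0.59 and 0.95 over all deep peaks. All deep 5mC peaks were below their PP level in neurons in 21 of the 112 genes and all above it in 0. The median difference of all 5mC peaks was itself -0.17, so most 5mC peaks of any kind lay below their PP level. For 5hmC all were below in 7 genes and all above in 3 of the 126. Peaks past 1.5-fold in both directions were found within the same gene in 10 genes for 5mC and in 50 for 5hmC. None of these gene counts was made for other peaks, so they have no background here.

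The 2 marks shared few deep peaks. Of deep 5mC peaks 208 (13.6%) overlapped a 5hmC peak by at least 1 bp, against 12.2% of all 5mC peaks, and of deep 5hmC peaks 206 (11.6%) overlapped a 5mC peak, against 14.2% of all 5hmC peaks and 16.6% of the other 5hmC peaks inside genes. At the 206 overlaps in which both peaks were deep, in 138 genes, median 5mC levels were 5.08, 5.04, and 4.61 in PP, DP, and neurons, and median 5hmC levels were 4.47, 4.51, and 5.08. From PP to neurons 5mC was lower and 5hmC higher at 67 of them (32.5%), and the reverse was found at 0. Among all 6735 overlaps the share was 22.4%, with the reverse at 14. Among 309 overlaps within 100 kb of the TSS of the same host genes it was 29.5%, with the reverse at 1. The reverse was thus rare in every set. Overlaps at which both marks were lower were not counted, but were found in *Klhl29* and *Syt1*. From PP to DP 2 deep overlaps (0.97%) had a lower 5mC and a higher 5hmC level, against 3.22% of all overlaps and 4.53% of those 309. From DP to neurons 52 (25.2%) had both, against 16.0% and 22.3%.

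Overlapping deep peaks passed 1.5-fold more often than the rest in both marks. Of the 208 overlapping deep 5mC peaks 41.8% were lower in neurons than in PP, against 19.3% of the 1319 that did not overlap. Of the overlapping deep 5hmC peaks 52.4% were higher in neurons, against 19.8% of the others. The same contrast was seen over all peaks, with 31.7% against 14.2% for 5mC and 40.4% against 16.9% for 5hmC. Spearman's rank correlation between the differences of both marks was -0.47 across the 206 deep overlaps and -0.51 across all overlaps. The values of an overlap come from the same DNA and overlapping fragments, and they are not independent.

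**Figure D4:**
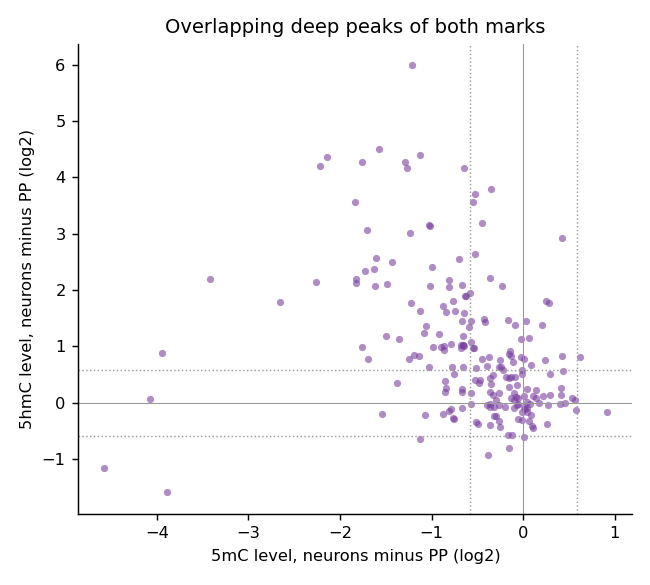
Difference of the log2 level between neurons and PP for 5mC (horizontal) and 5hmC (vertical) at the 206 overlaps of a deep 5mC with a deep 5hmC peak. Each point is an overlap, and dotted lines mark 1.5-fold. The upper left field, with lower 5mC and higher 5hmC in neurons, holds 67 points. The lower right field holds 0, where 14 of all 6735 overlaps would lie.

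Examples of such overlaps, chosen after their values were seen, were *Dgki*, *Odz3*, and *Ksr2*. In *Dgki* (chr6:37142119-37142270) 5mC was 7.30, 7.07, and 5.57, where the 5hmC peak of the same site had its gain. In *Odz3* (chr8:48483099-48483208) 5mC was 5.80, 5.31, and 4.17. In both genes 5hmC had gained more than 1 log2 unit by DP, while the 5mC difference was -0.23 and -0.49. In *Ksr2* (chr5:117546797-117546952), which encodes a scaffold of Ras signaling, 5mC was 6.51, 6.11, and 5.64, and 5hmC was 4.42, 4.77, and 6.13.

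Host genes of deep peaks were more often expressed at a higher level in neurons than other genes were. On the scale of log2(value + 1), their median difference was 0.17 from PP to DP, 0.69 from DP to neurons, and 0.96 from PP to neurons. From PP to DP 33.7% of the 537 genes were higher and 20.5% lower by at least 1.5-fold, against 13.7% and 17% of all 16293 genes. From DP to neurons 52.5% were higher and 26.1% lower, against 26.2% and 26.1%. From PP to neurons 55.3% were higher and 26.1% lower, against 29.8% and 31.2%. Long genes without a deep peak lay between, with 44.8% of 1576 higher and 27.9% lower, and genes up to 100 kb had 27.4% and 31.0%. Host genes with at least 10 deep peaks had 64.7% and 22.5%, and those with 1 deep peak had 46.7% and 31.5%.

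The largest gains of expression from PP to neurons were those of *Gabbr2*, a GABA-B receptor subunit gene, with 2.1, 12.4, and 1185 in PP, DP, and neurons, *Glra2*, a glycine receptor subunit gene, with 6.9, 21.3, and 2496, and *Runx1t1*, a corepressor gene, with 60.8, 200, and 12662. The largest losses were those of *Plce1*, a phospholipase C gene, with 9727, 3631, and 36.5, *Pld1*, a phospholipase D gene, with 561, 119, and 4.0, and *Gna14*, a G protein subunit gene, with 253, 57.3, and 1.7. Among the genes with a gain of expression, the median difference of the deep 5mC peaks from PP to neurons was -0.27 in *Gabbr2* (6 peaks) and -0.02 in *Glra2* (1 peak), and among those with a loss it was -0.31 in *Plce1* (1 peak), -0.29 in *Pld1* (6 peaks), and 0.002 in *Gna14* (3 peaks). For deep 5hmC peaks it was 0.33 in *Gabbr2* (10 peaks) and -0.22 in *Runx1t1* (1 peak), and 0.09 in *Plce1* (4 peaks), -0.68 in *Pld1* (2 peaks), and -0.33 in *Gna14* (4 peaks). Both signs of the 5hmC difference were found on either side.

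Split by host expression, deep 5mC peaks were lower in neurons than in PP at 24.1% where expression was higher in neurons, at 14.0% where it was lower, and at 27.2% where it lay between. Over all peaks and their nearest genes the shares were 19.7%, 14.4%, and 14.9%. For deep 5hmC peaks higher in neurons the shares were 23.8%, 22.1%, and 24.6%, against 23.0%, 18.1%, and 19.2%. Across genes, Spearman's rank correlation between the mean level difference of the deep peaks and the difference in expression was -0.12 for 5mC (435 genes) and 0.03 for 5hmC (468 genes), and for other peaks inside genes it was -0.12 and 0.07. Genes are not independent replicates, and these values are weak.

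Host genes were also described by role, in 10 lists. All counts that follow are from PP to neurons, and a list is set beside the 55.3% and 26.1% of all host genes, and the 22.3% and 23.6% of all deep peaks. Lower in neurons were 11.3% of all deep 5hmC peaks.

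Genes of the cell surface were mostly higher in neurons. Of 28 host genes for cell and synapse adhesion 22 had a higher expression and 3 a lower one, and of their 84 deep 5mC peaks 19 (22.6%) were lower, while 26 of 135 deep 5hmC peaks (19.3%) were higher. *Cadm1* and *Lphn2*, both synaptic adhesion genes, had 3 of 14 and 3 of 8 deep 5mC peaks lower, and 4 of 11 and 3 of 9 deep 5hmC peaks higher. All 6 cadherin and protocadherin hosts, among them *Pcdh9*, *Cdh10*, and *Pcdh7*, were higher in neurons. Of their deep 5mC peaks 2 of 8 (25%) were lower, and of their deep 5hmC peaks 2 of 19 (10.5%) were higher and 2 (10.5%) lower.

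Axon guidance hosts were mixed in expression, with 8 of 14 higher and 4 lower. *Dcc* had 778 in PP and 18177 in neurons, and *Sema5a*, a semaphorin gene, had 32574 and 2108. Deep 5hmC peaks of the list were higher at 21 of 61 (34.4%), 7 of them in *Robo1*, and lower at 3, and deep 5mC peaks were lower at 12 of 47 (25.5%).

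Ion channel hosts had the largest share of higher expression after the cadherins, 20 of 24 with 0 lower, but the smallest share of 5hmC peaks with a gain. Only 6 of their 68 deep 5hmC peaks (8.82%) were higher in neurons and 11 (16.2%) were lower, and 8 of 53 deep 5mC peaks (15.1%) were lower. *Cacna1e*, a calcium channel gene, had an expression of 184 in PP and 16687 in neurons, and 0 of its 4 deep 5hmC peaks were higher. *Ryr2*, the gene of an intracellular calcium channel, had 51.6 and 908, and 0 of 6, and *Kcnh1*, a potassium channel gene, had 8.0 and 73.7, and 2 of 10.

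Of 17 transmitter receptor hosts 13 were higher and 0 lower in neurons, and 13 of 63 deep 5hmC peaks (20.6%) were higher and 8 (12.7%) lower. *Grin2a*, a subunit gene of the NMDA receptor, had 3 of 15 deep 5hmC peaks higher and 3 lower, and *Grik4*, a kainate receptor gene, had 5 of 8 higher, 1 of them from the lowest level listed. In the list of cytoskeleton and postsynaptic scaffolds, which also holds genes of the active zone, 19 of 26 were higher and 4 lower. It had the largest share of deep 5hmC peaks with a gain, at 39 of 109 (35.8%), while 14 (12.8%) were lower. Of its 105 deep 5mC peaks 30 (28.6%) were lower. *Erc2*, an active zone gene, had 4 of 12 deep 5hmC peaks higher, and *Ctnna3*, an alpha-catenin gene of low expression (1.3 in PP and 25.9 in neurons), had 2 of 7.

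Transcription factors and chromatin regulators were less one-sided, with 14 of 30 hosts higher and 9 lower in expression, but 31 of their 91 deep 5mC peaks (34.1%) were lower. Of these, 9 lay in *Auts2*, 1 of which stood at the lowest level listed, and 5 in *Ldb2*, a LIM domain binding gene. Deep 5hmC peaks were higher at 38 of 140 (27.1%). *Tcf7l2*, the gene of a transcription factor of Wnt signaling, had an expression of 1591 in PP and 61.4 in neurons and 6 of 15 deep 5hmC peaks higher, so a gain of 5hmC was found in a gene with less expression too.

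Among RNA-binding and splicing hosts 3 of 6 were higher and 3 lower. *Msi2*, an RNA-binding gene of progenitors, had 12246 in PP and 5245 in neurons, 0 of 8 deep 5mC peaks lower and 1 higher, and *Khdrbs3*, a splicing regulator gene, had 2 of 5 deep 5hmC peaks higher. Signaling enzymes and receptors had 21 of 42 hosts higher and 16 lower, 35 of 164 deep 5mC peaks (21.3%) lower, and 40 of 189 deep 5hmC peaks (21.2%) higher. *Ntrk2*, the gene of the BDNF receptor TrkB, had 5 of 13 deep 5mC peaks lower, *Ptprn2* 3 of 11, and *Nckap5* 2 of 7. Of 9 genes of common fragile sites, which are long genes prone to breaks, 5 were higher and 2 lower. Of their 39 deep 5hmC peaks 5 (12.8%) were higher and 6 (15.4%) lower, and 6 of 22 deep 5mC peaks (27.3%) were lower. *Park2*, a ubiquitin ligase gene, had 1 of 7 deep 5mC peaks lower and 2 of 8 deep 5hmC peaks higher.

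**Figure D5:**
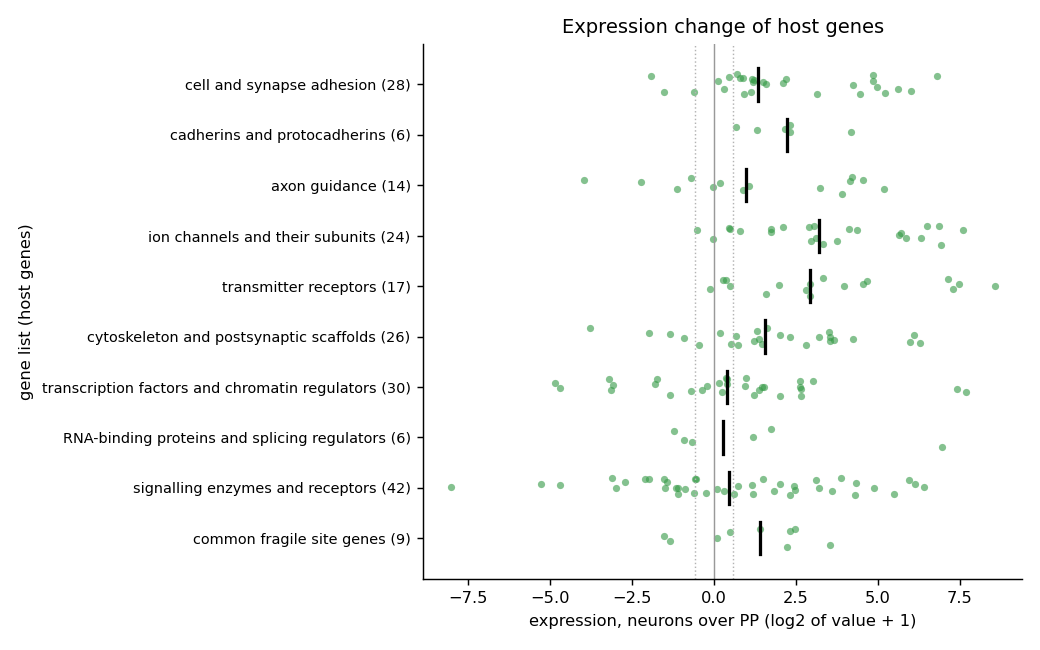
Difference in expression between neurons and PP, as log2 of (value + 1), of the host genes of deep peaks in 10 lists by role. Each point is a gene, black bars are medians over genes, dotted lines mark 1.5-fold, and the number of host genes is given after each name. The medians of ion channels (3.22) and transmitter receptors (2.94) are the farthest to the right, and those of RNA-binding proteins (0.27), transcription factors (0.41), and signaling (0.47) are nearest to 0.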

How the data were processed

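Peaks and levels were used as the authors deposited them. The authors mapped the reads to mm10 (BWA 0.7.8-r455), called peaks with SICER 1.1 per cell type, kept those found in all replicates, left out repeats, and annotated the nearest TSS (HOMER 4.7 is named per the labels). The deposited levels are log2 values of the mean normalised read level (TMM, from DiffBind) of a peak in PP, DP, or neurons. The deposited distance is a number of bp, and the deposited expression is a score from the authors' earlier RNA-seq, whose scale is not named. The authors' fold changes and their p-values and adjusted p-values for each pair of cell types were not used. Depth and replicate spread are unknown from these tables, and each table was read on its own. Sorted DNA of all cell types was precipitated in a single mix, so levels are relative within a mark.

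All rows were used without a filter. Differences of levels were taken between cell types, with a minimum of 1.5-fold, and expression was compared as log2(value + 1), with 1 value per gene. Expression was compared between cell types within a gene, never between genes. Peaks overlapped at 1 bp or more. The main medians and shares were set beside those of all peaks or genes, and Wilson intervals cover counting error only. No test was made, since 1 pooled value per cell type allows none. Whether peaks are exonic or intronic was not analysed here, and base composition over all peaks was not analysed here.

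Named peaks and genes were the 3 largest differences from PP to neurons for each mark and direction (mean level at or above the median of all peaks, no cell type at the lowest level listed), the 6 genes with the most deep peaks, the 3 largest gains and losses of expression (mean of at least 50), and up to 3 genes with the most deep peaks of each of 10 lists. A gene that this rule names is not reported here. The members and the lists were chosen with earlier results of these data known. Gene spans and start windows came from RefSeq (GRCm38.p6), and the convention for peak starts, which is not given in the sources used here, was taken as counting from 1. Alternatives were another fold minimum, distance, pseudocount, overlap, and expression minimum, differences less the median of all peaks, autosomes only, 1 peak per host gene, stronger peaks, and peaks within the RefSeq gene. The counting and overlap steps were run on simulated peaks with large planted differences and little noise, which checks the code and not the precision of these data. Python 3.11.15, pandas 2.3.3, numpy 2.4.6, scipy 1.17.1, and matplotlib 3.10.9 were used.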

Additional observations from a re-analysis of the deposited data

How the results depend on the processing

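No paired analysis was possible because the tables hold a single pooled value per cell type and no replicate columns, and for the same reason no replicate was left out. Shares are in percent of deep peaks or host genes, and main values are those of the report. Except where stated, no share of all peaks treated alike is given beside them. The shares of all peaks in the report belong to the main settings and cannot be set against these values.

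Autosomes alone, peaks within the RefSeq gene, and a mean expression of at least 50 left every share they were tried on close to the main one (within its Wilson interval), as did 2 settings chosen after seeing the data, peaks over 100 kb from every listed start of the host gene and peaks with no cell type at the lowest level. In 44 of 102 recomputed values the value moved, and the cause was not tested unless stated.

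A minimum of 2-fold gave, for 5mC, 0.72 higher and 1.38 lower in DP than PP and 0.196 higher and 7.40 lower in neurons than DP. For 5hmC it gave 5.44 and 0.505, then 9.03 and 1.51, and for expression 24.0 and 9.31, then 44.3 and 19.2. This follows from the stricter limit. With peaks at or above the median level of all peaks, the values were 1.26, 1.26, 0.139, and 11.9 for 5mC and 4.06, 2.32, 8.46, and 4.17 for 5hmC, in the same order. Shares of all peaks were small here too. In the third and the strongest class of level, 10.5 and 4.51 of all 5mC peaks were lower in neurons than DP, against 15.0 and 8.05 of deep ones. For 5hmC higher in neurons than DP the shares were 8.58 and 5.82, against 8.92 and 7.98. With 1 peak per host gene, that of the highest mean level, 5mC had 3.91 lower in DP, 0.92 higher and 11.7 lower in neurons, and 5hmC had 5.56, 4.06, 11.1, and 3.63. The median differences then were -0.15 for 5mC from DP to neurons, and -0.043 and -0.058 for 5hmC at the first and the second transition, the last below 0 where it was 0.02 over all deep peaks.

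Beyond 200 kb the 5mC shares were 2.92 higher in DP and 25.1 lower in neurons than DP, and 17.7 of 5hmC peaks were higher in neurons. The median differences were -0.27 for 5mC from DP to neurons, and -0.056 and -0.029 for 5hmC at the 2 transitions. Host genes had 41.2 higher and 24.3 lower in DP, and 64.2 higher and 17.6 lower in neurons than DP. Less the median of all peaks, 5.30 of 5mC peaks were higher and 13.3 lower in neurons than DP, against 5.12 and 9.36 of all peaks treated alike. A pseudocount of 10 gave 29.8 of host genes higher in DP, and an overlap of at least 50% of the shorter peak gave 11.7 of deep 5mC peaks. The read counts of single peaks are unknown, so the precision of weak peaks cannot be given, and weak peaks passed 1.5-fold most often.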
